A study of Ginkgo biloba with 2 samples.

Results

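The genes described here are predicted miRNA targets of Ginkgo biloba whose best protein match is a chloroplast protein. They were taken from the target table by their protein description, which had to hold chloroplast, thylakoid, photosystem, plastid, light-harvesting or ribulose. Genes described by pentatricopeptide, chlorophyll, pheophorbide, phytoene, carotene, geranylgeranyl or transcription factor were left out. This gave 107 of the 2713 target genes. They were chosen by description, not by read counts. The study set mutant yellow leaves, which the protocol text describes as striped in yellow and green, against normal green leaves of an adult tree, with 1 small RNA library for each leaf type. The libraries held 2793966 reads in yellow and 2084893 reads in green leaves over all miRNA names. With 1 library per leaf type no difference has a replicate check, and no p-value between leaf types is given. By that protocol text the yellow library may hold green tissue, and the extraction text names cambium while the tissue label of both samples is leaf.

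Chloroplasts arose from a cyanobacterium, and most of their proteins are encoded in the nucleus, made in the cytosol and imported. They house the light reactions of photosynthesis, carbon fixation, starch and fatty acid synthesis, and the making of many amino acids, terpenoids and pigments. A plant miRNA pairs with a matching stretch of an mRNA and mostly leads to its cleavage, so mRNAs of such nuclear genes can be miRNA targets. Whether each member is a nuclear gene was not tested. The matches below to S7, CP47 and NAD(P)H dehydrogenase subunits J and 5 are to proteins that land plants usually encode in the chloroplast genome. Other members were not checked for this. The deposited files hold miRNA counts and predictions. Neither the mRNA levels of the target genes nor cleavage was measured, so a lower or higher miRNA says nothing about the level of its target here. The miRNA and gene sequences were not analysed here.

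Members were spread over chloroplast functions, and carbon fixation had only 2 of them. The word chloroplast stood in 104 descriptions, photosystem in 3, plastid in 2 and thylakoid in 1, and some held more than 1 of them. No description held ribulose or light-harvesting, so neither Rubisco nor a light-harvesting protein of that name was among the members. By description, 19 members belonged to amino acid and nucleotide synthesis, 17 to hormone, terpenoid and cofactor synthesis, 10 to the light reactions, 9 to chloroplast translation, 8 to starch and sugar metabolism and 8 to RNA and gene expression. A further 7 belonged to protein import, folding and proteolysis, 6 to lipids, 5 to plastid division and the envelope, 4 to transport, 3 to signalling, 2 to carbon fixation and 9 to none of these. The label rests on similarity alone. In the authors' deposited table the E-value of the match was 1e-50 or below for 70 members and above 1e-10 for 7, and 10 members were described as mitochondrial as well. A Ginkgo biloba protein was the best match of 9 members and an Arabidopsis thaliana protein of 64.

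The 107 genes were listed for 98 miRNA names in 171 gene-name pairs. A single name listed 83 of them, or 77.6%, against 74.0% of the 2606 other target genes. Numbered names, known only by the authors' running number, made up 34 of the 98 names and 61 of the 171 pairs (35.7%, against 38.1% of the pairs of other target genes). The genes listed for the most names were Gb_38183 (match arogenate dehydrogenase) with 8 miR171 names, Gb_27117 (match CLT3) with 7 miR159 names, and Gb_18514 (match ATP sulfurylase) and Gb_21136 (match levopimaradiene synthase) with 6 miR395 names each. Another 3 genes had 5 names each: Gb_04666, Gb_09130 and Gb_34459, all with the match levopimaradiene synthase.

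Most of these names were weakly sequenced. Of the 98 names, 35 had under 20 reads in both libraries together and 13 had a single read. As a result 47 members, or 43.9%, were listed only for names of under 20 reads, against 40.9% of the other target genes. For those members the libraries do not settle the size of a difference. Ratios or bounds given below for their names rest on few reads and carry no call with the minimum of 20 reads. A name was called lower or higher where its reads in both libraries summed to at least 20, with a yellow-to-green ratio of at least 2 in either direction after scaling to the column totals, and a 95% exact (Clopper-Pearson) interval that left out 1. Every ratio below is yellow over green. Ratios of names with the column total are followed by that interval, which covers counting error only. Ratios with another scaling are given without one.

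**Figure D1:**
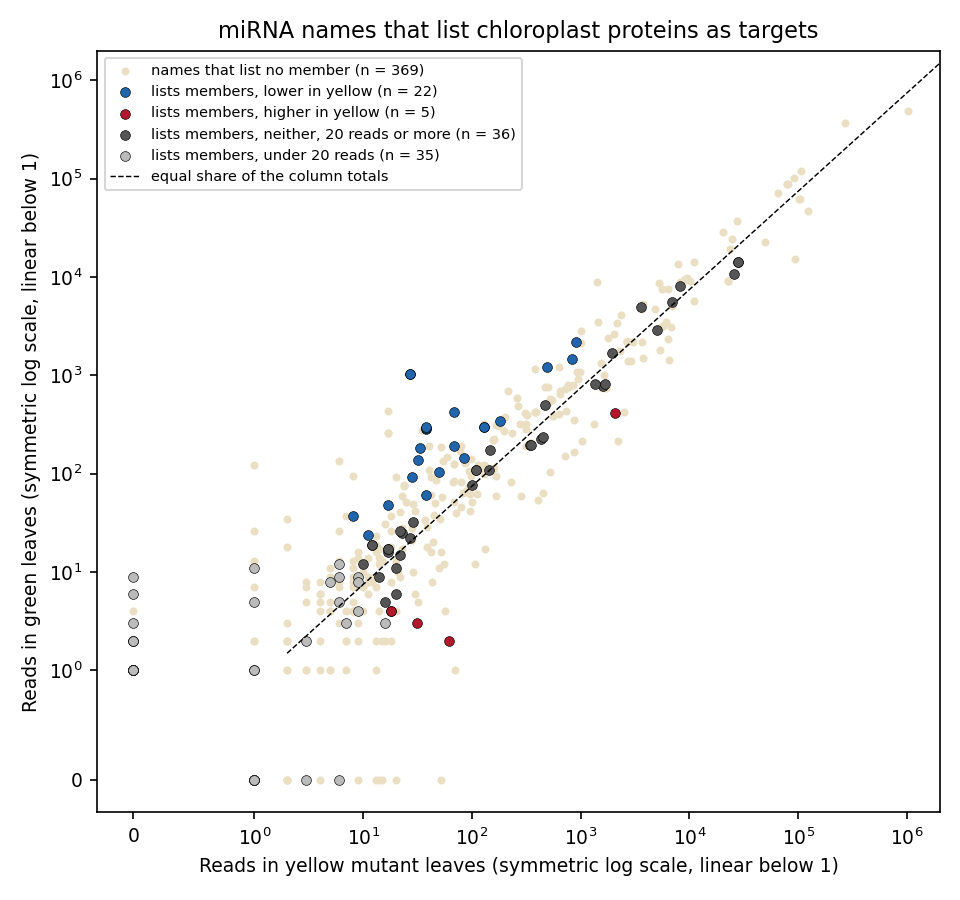
Reads of each miRNA name in yellow (x axis) and green leaves (y axis) on symmetric log scales, with names that list chloroplast target genes coloured by their call and the other names in beige; the dashed line marks equal shares of the column totals. Of the 98 names, 22 were lower and 5 higher in yellow leaves, and 35 had under 20 reads.

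Lower names listed more members than higher names when counts were scaled to the column total. At least 1 lower name listed 21 of the 107 members (19.6%), against 16.8% of all target genes. At least 1 higher name listed 5 members (4.67%), against 10.2% of all target genes. That background leans on 1 name: of its 277 genes, 72 were listed for novel_320 and 205 had another higher name. In pairs, lower names held 27 of 171 (15.8%, against 13.2% of all pairs) and higher names 6 (3.51%, against 6.14%). The share for lower names was near the background. The share for higher names was under its background, but other scalings gave 13 or 14 members for higher names. The split therefore turned with the scaling: 17 lower and 13 higher without the most-read name, novel_1, in the totals, 16 and 13 with median of ratios, and 14 and 14 with TMM. The share of all target genes was taken with the column total only, so the member counts of other scalings have no such background. Over all names with at least 20 reads, lower calls fell from 24.8% with the column total to 16.3% with TMM. Higher calls over all names rose from 12.1% to 20.9%. In all 4 scalings the same 14 members kept a lower name and the same 5 a higher name. Of the 9 members that gained a higher name under another scaling, 6 were listed for novel_277, with 16 reads in yellow and 5 in green leaves.

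**Figure D2:**
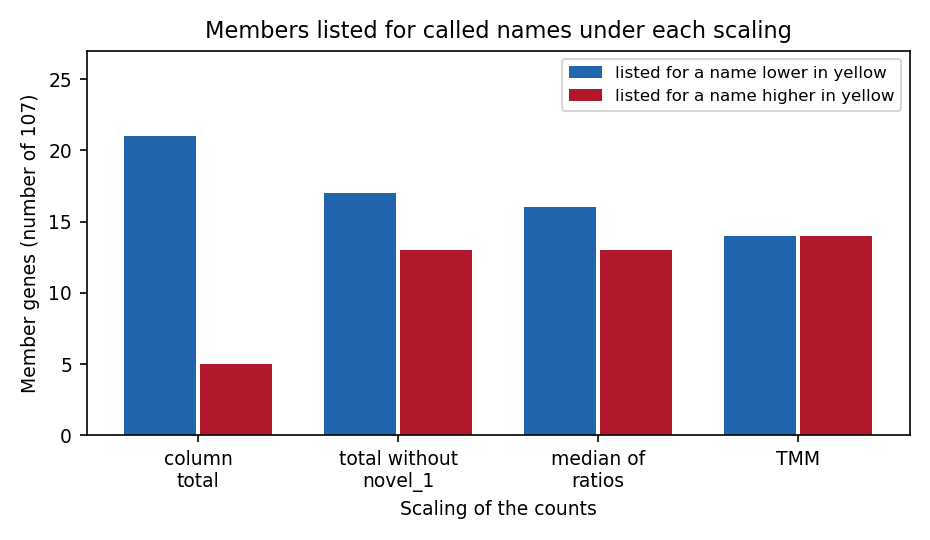
Number of the 107 members listed for at least 1 name lower (blue) or higher (red) in yellow leaves under each scaling of the counts. The lower count runs from 21 with the column total to 14 with TMM, and the higher count from 5 to 14. No share of all target genes was taken for the other scalings.

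Among the names themselves, 22 of the 63 with at least 20 reads were lower (34.9%, against 24.8% of all names) and 5 were higher (7.94%, against 12.1%). Their median log2 ratio of -0.42 was close to the -0.43 of all 306 names with at least 20 reads. With TMM, 16 were lower (25.4%, against 16.3% of all names) and 12 higher (19.0%, against 20.9%), and the medians were 0.05 and 0.03. Of the 22 lower names, 8 were numbered and 14 had miRBase names of other plant species. Reads can be counted under several names of a family, so the 63 names are not independent.

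**Figure D3:**
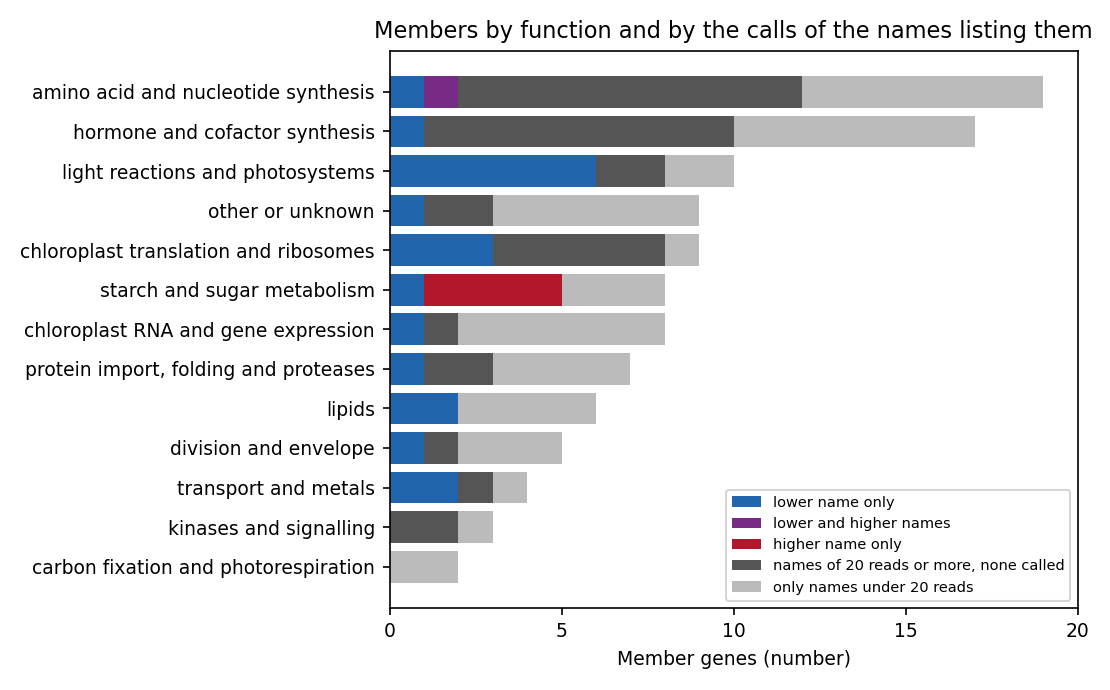
Members in each functional group (x axis, number of genes), split by the calls of the names listing them. Lower names listed 6 of 10 members of the light reactions, higher names listed 4 of 8 of starch and sugar metabolism, and both members of carbon fixation had only names under 20 reads. Of all target genes, lower names listed 16.8% and higher names 10.2%.

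With the column total, the light reactions held the most members listed for lower names, 6 of 10, against 16.8% of all target genes. None was listed for a higher name, against 10.2% of all target genes. The count for lower names was 5 without novel_1 in the totals, 4 with median of ratios and 3 with TMM, where chloroplast translation also had 3. Proteins of the NAD(P)H dehydrogenase-like complex, which passes electrons around photosystem I, made up 3 of the 10. Gb_17982, matching subunit J, was listed for gma-miR4995, with 38 reads in yellow and 293 in green leaves, a ratio of 0.0968 (0.0671 to 0.136). Among names with at least 20 reads, this was the lowest ratio in the group. Gb_11139, matching subunit S, was listed for novel_84, with 180 reads in yellow and 344 in green leaves, a ratio of 0.390 (0.324 to 0.469), and for novel_324, with 29 and 32 reads. novel_84 was not called with median of ratios or TMM. Gb_09037, a weak match to subunit 5, was listed only for gma-miR5368, with 1 read in yellow and 5 in green leaves.

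Photosystem II, which splits water, was represented by its assembly, its core and its repair. Gb_39548, matching the assembly factor PSB28, was listed for hbr-miR6173, with 32 reads in yellow and 139 in green leaves, a ratio of 0.172 (0.113 to 0.254) that was called in all 4 scalings. Gb_23566 and Gb_41659 both matched CP47, an inner antenna protein of the core, and both were listed for novel_324 alone, with 29 reads in yellow and 32 in green leaves. Its interval, 0.395 to 1.15, took in both 1 and a ratio of 0.5, so neither an equal share nor a 2-fold lower one was excluded. Gb_21369, matching the repair factor LQY1, was listed for names on both sides of a ratio of 1. ppt-miR319a had 840 reads in yellow leaves and 1452 in green leaves, a ratio of 0.432 (0.396 to 0.470), called with the column total only. aqc-miR159 had 147 and 173 reads, a ratio of 0.634 (0.505 to 0.795), and mdm-miR159a 5030 and 2890, a ratio of 1.299 (1.24 to 1.36).

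Early light-induced proteins bind pigment and protect the membrane under excess light. Of the genes matching them, Gb_24954 was listed for novel_101, with 69 reads in yellow and 423 in green leaves, a ratio of 0.122 (0.0930 to 0.157). The same gene was listed for novel_113, with 20 reads in yellow and 6 in green leaves, whose ratio was 2.49 (0.963 to 7.57). It was not called with the column total and turned to a higher call in the 3 other scalings. The other gene, Gb_06116, was listed for nta-miR397, with 0 reads in yellow and 3 in green leaves, and for osa-miR397b and sly-miR397, each with 0 reads in yellow and 1 in green leaves. Gb_31904, matching the gamma chain of the ATP synthase, the turbine stalk of the enzyme, was listed for novel_132, with 50 reads in yellow and 103 in green leaves, a ratio of 0.362 (0.253 to 0.513). That name was called in every scaling but TMM. ppt-miR1030h, also listing Gb_31904, had 6 reads in yellow leaves and 12 in green leaves.

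Carbon fixation was represented only by phosphoglycerate kinase, which phosphorylates the first product of Rubisco in the Calvin cycle. Gb_07034 was listed for novel_337, with 1 read in yellow and 11 in green leaves, and Gb_32467 for gma-miR5368, with 1 and 5 reads. Both names stood under the minimum of 20 reads.

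Starch and sugar metabolism held 4 of the 5 members listed for higher names. They were 4 of the 8 genes of the group, against 10.2% of all target genes, and kept a higher name in all 4 scalings. Gb_33676, matching the branching enzyme that adds the side chains of starch, and Gb_41272, matching glucose-6-phosphate dehydrogenase, the entry of the oxidative pentose phosphate pathway, were both listed for novel_57 alone. novel_57 had 2066 reads (739 CPM) in yellow and 414 (199 CPM) in green leaves, a ratio of 3.72 (3.35 to 4.15). It was the most-read higher name among the 98 and had 43 predicted targets in all, so these 2 genes rest on 1 measurement. Gb_24148, matching starch synthase 4, known in Arabidopsis for starting starch granules, was listed for novel_279, with 31 reads in yellow and 3 in green leaves, a ratio of 7.71 (2.41 to 39.4).

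Glucan water dikinase, which phosphorylates starch and so opens it to breakdown, was matched by a pair of genes whose miRNAs differed in opposite directions. Gb_00444 was listed for novel_330, with 61 reads in yellow and 2 in green leaves, a ratio of 22.8 (6.04 to 192). Gb_00440 was listed for rgl-miR5139, with 38 reads in yellow and 296 in green leaves, a ratio of 0.0958 (0.0665 to 0.135). Both calls held in all 4 scalings. The other members of the group had names with too few reads. Gb_02250, matching alpha-amylase 3, was listed for novel_337 (1 read in yellow, 11 in green), Gb_26115, matching the debranching enzyme isoamylase 1, for novel_327 (6 and 5), and Gb_24917, matching a granule-bound starch synthase, for hbr-miR476 (1 and 0).

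**Figure D4:**
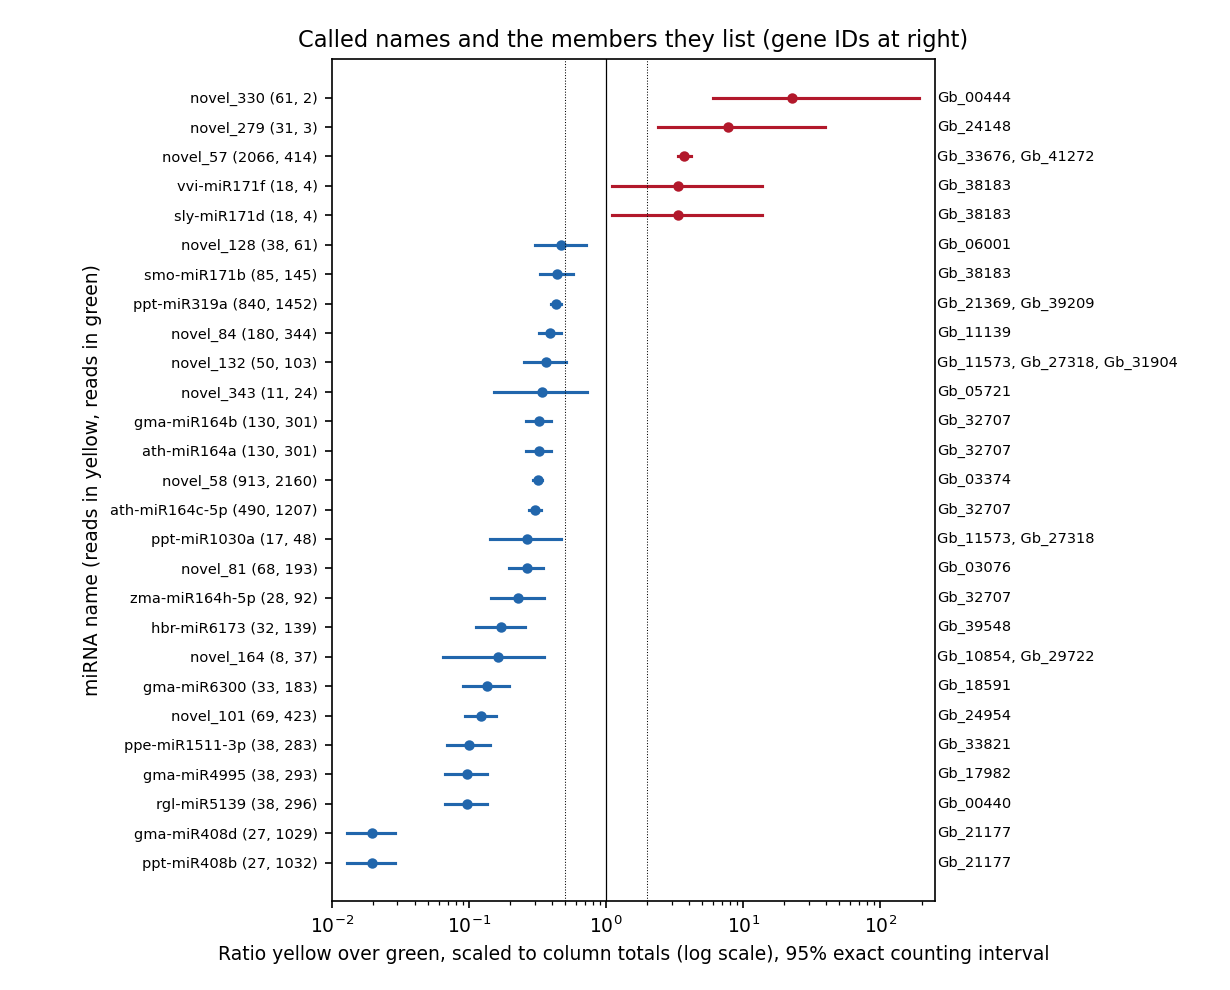
Ratio of yellow over green leaves (log x axis) with its 95% exact counting interval for the 27 called names that list chloroplast target genes, which are given at the right; dotted lines mark ratios of 0.5 and 2. The miR408 names have the lowest ratios, near 0.02, and novel_330 the highest, at 22.8 with a wide interval.

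Chloroplast translation had 3 of 9 members listed for lower names, in each of the 4 scalings, and none for a higher name. With the column total these shares stood against 16.8% and 10.2% of all target genes. Gb_03076, matching protein L5 of the large ribosomal subunit, was listed for novel_81, with 68 reads in yellow and 193 in green leaves, a ratio of 0.263 (0.196 to 0.348). Gb_11573, matching protein S10 of the small subunit, was listed for ppt-miR1030a, with 17 reads in yellow and 48 in green leaves, a ratio of 0.264 (0.142 to 0.468), for novel_132 as given above, and for ppt-miR1030h. Gb_29722, matching an arginine tRNA ligase shared by chloroplasts and mitochondria, was listed for novel_164, with 8 reads in yellow and 37 in green leaves, a ratio of 0.161 (0.0649 to 0.352), and for novel_244, with 9 and 8 reads. With the column total, the interval of at least 1 name lay wholly under a ratio of 0.5 for each of the 3 genes.

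The other translation genes had no called name with the column total. Gb_09043 and Gb_32443 matched the Ginkgo chloroplast protein S7, which land plants usually encode in the chloroplast genome itself, and both were listed for novel_134, with 27 reads in yellow and 22 in green leaves, a ratio of 0.916 (0.502 to 1.69). Gb_30016, matching ribosomal protein 3 of the small subunit, was listed for novel_229, with 22 reads in yellow and 15 in green leaves, a ratio of 1.09 (0.543 to 2.27). Glycine tRNA ligase was matched by Gb_13783 and Gb_24660, and both were listed for ptc-miR396f, with 1347 reads in yellow and 820 in green leaves, a ratio of 1.23 (1.12 to 1.34). Gb_13783 was also listed for ptc-miR396g-5p (6865 reads in yellow, 5609 in green), smo-miR396 (451 and 235) and novel_49 (1 and 1). The ratio of ptc-miR396g-5p was 0.913 (0.882 to 0.946) with the column total and 1.22 with median of ratios. Gb_20445, matching an aspartate tRNA ligase, was listed for novel_244 only.

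Genes for chloroplast RNA had few reads behind them, with 6 of 8 listed only for names of under 20 reads. CRS1, which splices a chloroplast intron in maize, was matched by Gb_39209 and Gb_39217. Gb_39209 was listed for ppt-miR319a, mdm-miR159a and novel_244, of which the first was lower with the column total only. Gb_39217 was listed for novel_277, with 16 reads in yellow and 5 in green leaves, a ratio of 2.39 (0.836 to 8.33). Its interval took in 1 with the column total, and it was called higher in the other scalings.

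The remaining RNA genes stood at or near the detection limit. Gb_15732, matching the splicing factor CAF2, was listed for novel_244 (9 reads in yellow, 8 in green), and Gb_07206, matching DPD1, an exonuclease of organelle DNA, for gma-miR5368 (1 and 5). Single reads lay behind Gb_05877, a match to a chloroplast ribonucleoprotein listed for aly-miR172e-3p (1 and 0), and behind Gb_33852, a match to a ribonuclease listed for mtr-miR156j (1 and 0). Gb_21132, matching polynucleotide phosphorylase, was listed for gma-miR169v (1 and 1) and Gb_17946, matching the decapping enzyme DXO, for osa-miR397b (0 and 1).

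In protein import, folding and proteolysis, 1 of 7 members was listed for a lower name, against 16.8% of all target genes. Gb_10854, matching the ATPase subunit of the Clp protease that unfolds stromal proteins, was listed for novel_164, given above for the arginine tRNA ligase. Gb_01039, matching a small heat shock protein, was listed for ptc-miR396f, smo-miR396 and pde-miR396, the last with 23 reads in yellow and 25 in green leaves, and none was called. smo-miR396 had a ratio of 1.43 (1.22 to 1.68), while that of pde-miR396 was 0.687 (0.372 to 1.26). Gb_08930, matching a protease that clears cleaved targeting peptides, was listed for novel_155, with 20 reads in yellow and 11 in green leaves, a ratio of 1.36 (0.620 to 3.13).

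The other 4 genes of this group had only names of under 20 reads. Gb_11666, matching the thylakoid protease FTSH 8, was listed for novel_337 (1 read in yellow, 11 in green) and Gb_20495, matching a relative of the membrane protein insertase ALBINO3, for ath-miR5658 (0 and 2). The rhomboid protease match Gb_14535 and the weak match Gb_11178 to the import component TIC32 were both listed for aly-miR845b-5p (3 and 2).

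Plastid division was covered by several of its known parts, mostly through scarce miRNAs. Gb_06001, matching MinD, which places the division site, was listed for novel_128, with 38 reads in yellow and 61 in green leaves, a ratio of 0.465 (0.302 to 0.708). It was called with the column total only. Gb_17194, matching FtsZ1, which forms the inner division ring, was listed for tae-miR395b (6 reads in yellow, 9 in green) and ata-miR395b-3p (0 and 1), and the weak match Gb_29928 to PDV1, which recruits the outer ring, for ata-miR395b-3p alone. Gb_39165, matching the replication licensing protein CDT1a, was listed for novel_277, and Gb_05791, matching an outer envelope pore protein, for novel_327 (6 and 5).

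For lipids, only 2 names had enough reads, and both were lower. Gb_03374, matching fatty acid desaturase 4, which in Arabidopsis makes an unusual fatty acid of thylakoid phosphatidylglycerol, was listed for novel_58. With 913 reads (327 CPM) in yellow and 2160 (1036 CPM) in green leaves, novel_58 was the most-read lower name among the 98, at a ratio of 0.315 (0.292 to 0.341). Gb_18591, matching an acyltransferase-like protein, was listed for gma-miR6300, with 33 reads in yellow and 183 in green leaves, a ratio of 0.135 (0.0899 to 0.196). Both calls held in all 4 scalings. These were 2 of 6 lipid genes, against 16.8% of all target genes listed for a lower name with the column total.

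The other 4 lipid genes were listed for names of under 20 reads. Gb_07799, matching a temperature-sensitive omega-3 desaturase, was listed for novel_166, with 0 reads in yellow and 9 in green leaves. Against a floor of 3 reads in the yellow library, novel_166 was at least 4.02-fold lower in yellow leaves if its green reads are taken as exact, while its counting interval allows 2.65-fold. Gb_23571, matching a plastid-lipid-associated protein, and Gb_31209, matching an acyl-activating enzyme, were both listed for novel_337 (1 read in yellow, 11 in green), and Gb_38295, matching a long chain acyl-CoA synthetase, for novel_327 (6 and 5).

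Enzymes of sulfur and nitrogen assimilation, counted with amino acid synthesis, showed the contrast between abundant and scarce miRNAs. Gb_32707, matching ferredoxin-dependent sulfite reductase, was listed for 4 names of miR164, a family known for NAC transcription factors, and all 4 were lower in all scalings. ath-miR164c-5p had 490 reads (175 CPM) in yellow and 1207 (579 CPM) in green leaves, a ratio of 0.303 (0.272 to 0.337). ath-miR164a and gma-miR164b had equal counts, 130 in yellow and 301 in green leaves, a ratio of 0.322 (0.260 to 0.397), and zma-miR164h-5p had 28 and 92 reads, a ratio of 0.227 (0.143 to 0.350).

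The first step of sulfate assimilation is ATP sulfurylase, the textbook target of miR395. Gb_18514, its match here, was listed for 6 miR395 names. Of these, ath-miR395a had 14 reads in yellow leaves and 9 in green leaves, a ratio of 1.16 (0.468 to 3.04), and tae-miR395b had 6 and 9. The other 4 had 0 reads in yellow leaves, with 2 in green leaves for ath-miR395b and 1 each for ata-miR395b-3p, mtr-miR395a and osa-miR395b. All 6 together summed to 20 reads in yellow and 23 in green leaves, and the interval of ath-miR395a left room for a 2-fold difference in either direction. Gb_33156, matching cysteine synthase, the last step, was listed for novel_235, with 347 reads in yellow and 198 in green leaves, a ratio of 1.31 (1.10 to 1.57). Gb_18394, matching nitrite reductase, was listed for novel_27, with 8102 reads (2900 CPM) in yellow and 8021 (3847 CPM) in green leaves, a ratio of 0.754 (0.731 to 0.777), or 1.01 with median of ratios.

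The aromatic amino acid genes included the only member with names called in both directions. Gb_38183, matching arogenate dehydrogenase, which makes tyrosine, was listed for 8 miR171 names. vvi-miR171f and sly-miR171d had equal counts, 18 in yellow and 4 in green leaves, a ratio of 3.36 (1.11 to 13.6), and smo-miR171b had 85 and 145 reads, a ratio of 0.437 (0.331 to 0.576). The higher calls held in all scalings, and the lower one held with the column total only. The most-read pair after smo-miR171b, htu-miR171a and osa-miR171b, had 109 reads in each library. gma-miR171a (17 reads in yellow, 16 in green), ath-miR171b-3p and zma-miR171b-3p (17 and 17 each) were not called.

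No other aromatic gene had a called name. A second arogenate dehydrogenase match, Gb_28491, was listed for hbr-miR476 (1 read in yellow, 0 in green). Gb_25443, matching the shikimate pathway enzyme that glyphosate blocks, was listed for gra-miR167c, with 474 reads in yellow and 501 in green leaves, a ratio of 0.706 (0.621 to 0.802). Arogenate dehydratase, which makes phenylalanine, was matched by Gb_00109, listed for novel_118 with 145 reads in yellow and 108 in green leaves, a ratio of 1.002 (0.776 to 1.297), and by Gb_17286, listed for aly-miR165a-5p (0 and 1). Gb_21319, matching the beta chain of tryptophan synthase, was listed for novel_193, with 12 reads in yellow and 19 in green leaves, a ratio of 0.471 (0.209 to 1.02).

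The remaining amino acid and nucleotide genes were listed for numbered names or names of single reads. Gb_10310, matching a reductase of arginine synthesis, was listed for novel_277, and Gb_26366, matching argininosuccinate lyase of the same pathway, for novel_286 (5 reads in yellow, 8 in green). Isopropylmalate synthase, the entry to leucine, was matched by Gb_21790 and Gb_22738, both listed for ppe-miR482c-5p (1 and 0), and by Gb_21791, listed for pab-miR1863 (0 and 1). Gb_25824, matching the first enzyme of histidine synthesis, was listed for novel_264 (7 and 3). Gb_35249, matching a D-amino-acid transaminase, was listed for novel_309 (12 and 19). Purine synthesis was represented by Gb_16615, matching phosphoribosylglycinamide formyltransferase and listed for novel_193, and by Gb_13993, matching guanylate kinase and listed for novel_232 (10 and 12). None of these names was called with the column total.

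Levopimaradiene synthase, the Ginkgo enzyme that forms the diterpene skeleton leading to ginkgolides, was the most frequent match, with 7 members. All 7 target genes with this match are members, and 6 of them were listed for miR395 names. Gb_04666, Gb_09130 and Gb_34459 were listed for ath-miR395a, tae-miR395b, ata-miR395b-3p, mtr-miR395a and osa-miR395b, Gb_21136 for these and ath-miR395b, and Gb_08093 and Gb_39048 for tae-miR395b alone. The 6 genes thus share the same few reads, given above for ATP sulfurylase. In the other direction, miR395 names had 61 target genes, of which 9 were members. The matches of Gb_21136, Gb_34459 and Gb_39048 were weak, with E-values of 7.35e-10, 2.23e-10 and 3.69e-10 in the authors' deposited table. The only one not listed for miR395 was Gb_33821, listed for ppe-miR1511-3p, with 38 reads in yellow and 283 in green leaves, a ratio of 0.100 (0.0695 to 0.141) called in all 4 scalings.

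Counts of ppe-miR1511-3p lay within 5% of those of gma-miR4995 and rgl-miR5139 in both libraries, and no other name did. All 3 had 38 reads in yellow leaves, with 283, 293 and 296 in green leaves. Whether they count the same reads was not tested. Gb_33821, Gb_17982 and Gb_00440, which each rest on 1 of them, may therefore not be separate observations.

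Other terpenoid, hormone and cofactor genes had no called name with the column total. Tocopherol synthesis was represented by Gb_23487, matching homogentisate phytyltransferase and listed for ath-miR396b-3p (28001 reads in yellow, 14311 in green) and ama-miR396-3p (27994 and 14296). These were the most-read of the 98 names, with nearly equal counts, at ratios of 1.46 (1.43 to 1.49) for both, called higher with TMM only. Gb_27449, matching the methyltransferase of plastoquinone and tocopherol synthesis, was listed for novel_244. Gb_10265, matching solanesyl diphosphate synthase, which makes the plastoquinone tail, was listed for pta-miR1314, with 1935 reads in yellow and 1704 in green leaves. Its ratio of 0.847 (0.794 to 0.905) became 1.14 with median of ratios.

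Gibberellin synthesis was represented by kaurene synthase and kaurene oxidase. Gb_20775, matching the oxidase, was listed for novel_43, with 3603 reads (1290 CPM) in yellow and 4909 (2355 CPM) in green leaves, a ratio of 0.548 (0.524 to 0.572) that stayed short of the 2-fold limit. Gb_38576, with the same match, was listed for novel_339, whose 6 reads were all from yellow leaves. Against a floor of 3 reads in the green library, novel_339 was at least 1.49-fold higher in yellow leaves if its reads are taken as exact. Its counting interval began at 0.879 and so took in 1. Gb_18054, matching the synthase, was listed for novel_153 (22 reads in yellow, 26 in green), novel_169 (9 and 9) and atr-miR397b (0 and 6). Against a floor of 3 reads in the yellow library, atr-miR397b was at least 2.68-fold lower in yellow leaves if its green reads are taken as exact, while its counting interval allows 1.58-fold.

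The choice of members left out several pigment genes by their description, among them matches to chlorophyllide a oxygenase, chlorophyll(ide) b reductase NOL, which was listed for a lower name, and zeta-carotene desaturase. The remaining genes of pigments and their precursors had scarce miRNAs. Gb_04951, matching pheophytinase, which removes the phytol tail in chlorophyll breakdown, was listed for novel_277 (16 reads in yellow, 5 in green). Gb_32627, matching zeaxanthin epoxidase of the xanthophyll cycle, was listed for nta-miR397 (0 and 3). Gb_02806, matching heme oxygenase, which starts the phytochrome chromophore, was listed for bdi-miR159a-5p (1 and 0), and Gb_24797, matching the first enzyme of the plastid isoprenoid pathway, for novel_166 (0 and 9). None was called with the column total, and novel_277 was called higher in the other scalings.

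Transport and metals held the lowest ratios among the members. Gb_21177, matching PAA2, the thylakoid copper ATPase that supplies plastocyanin, was listed for ppt-miR408b, with 27 reads (9.66 CPM) in yellow and 1032 (495 CPM) in green leaves, and for gma-miR408d, with 27 and 1029 reads. Their ratios were 0.0195 (0.0128 to 0.0286) and 0.0196 (0.0128 to 0.0287), the lowest of all 63 names with at least 20 reads that list members. ata-miR408-3p, also listed for the gene, had 0 reads in yellow leaves and 2 in green leaves. The counts of ppt-miR408b and gma-miR408d were nearly equal, so the pair may be 1 observation.

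Among the other carriers, Gb_27318, matching the thylakoid ADP/ATP carrier, was listed for the same names as Gb_11573, novel_132, ppt-miR1030a and ppt-miR1030h. Gb_27117, matching CLT3, an envelope carrier linked to glutathione in Arabidopsis, was listed for 7 miR159 names, none called with the column total. The most-read, pta-miR159a, had 25949 reads (9288 CPM) in yellow and 10683 (5124 CPM) in green leaves, a ratio of 1.81 (1.77 to 1.85), and turned to a higher call in the 3 other scalings. bdi-miR159a-3p (1615 reads in yellow, 787 in green) and osa-miR159f (1685 and 808) had ratios of 1.53 (1.41 to 1.67) and 1.56 (1.43 to 1.69) and were called higher with median of ratios and TMM. mdm-miR159a is given above, and osa-miR159c (435 and 228), osa-miR159e (340 and 197) and ath-miR159a (100 and 76) were called in no scaling. Gb_12354, matching an ADP/ATP carrier of the envelope, was listed for hbr-miR476 (1 and 0).

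None of the 3 signalling genes was listed for a called name with the column total. Gb_12022, matching a calcium-activated ppGpp synthase, was listed for novel_193 (12 reads in yellow, 19 in green), Gb_01317, matching a VQ motif protein, for novel_277, and Gb_41479, matching a casein kinase II subunit, for stu-miR172c-3p (3 and 0).

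Of the 9 genes without a group, 1 was listed for a lower name, against 16.8% of all target genes. Gb_05721, matching BPS1, was listed for novel_343, with 11 reads in yellow and 24 in green leaves, a ratio of 0.342 (0.151 to 0.725) called in every scaling but TMM. Gb_03406, matching a WEB family protein, was listed for hbr-miR396a (16 reads in yellow, 3 in green) and novel_277 (16 and 5). The summed reads of these miRNA names, 32 in yellow and 8 in green leaves, were called higher, although neither name was called with the column total.

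The other ungrouped genes had few reads behind them. Gb_13912, matching VAR3, whose loss gives variegated leaves in Arabidopsis, was listed for osa-miR319a-3p.2-3p alone (0 reads in yellow, 1 in green). Nudix hydrolase 19 was matched by Gb_02254, listed for novel_232 (10 and 12), and Gb_30389, listed for ath-miR5658 (0 and 2), which also listed the uncharacterised match Gb_02610. Gb_10708, of the DCC family, was listed for novel_244, Gb_25932, matching cryptochrome DASH, for ptc-miR319i (9 and 4), and the weak rhodanese-like match Gb_38987 for ppe-miR482c-5p (1 and 0).

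A few scarce names listed many members. tae-miR395b listed 8, ata-miR395b-3p 7, novel_244 and novel_277 6 each, and novel_337 5, as did ath-miR395a, mtr-miR395a and osa-miR395b. Of all targets of these names, members made up 45.5% for ath-miR395a, 25% for tae-miR395b and 6.85% for novel_337. The 5 genes of novel_337 span phosphoglycerate kinase, alpha-amylase, FTSH 8 and 2 lipid genes. novel_337 had a ratio of 0.0678 (0.00158 to 0.467) on 12 reads in all, under the minimum for a call. With a minimum of 10 reads it was lower, and lower names then listed 26 members.

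Among the 28 genes that hold a rule word but were left out, 24 were pentatricopeptide repeat proteins, which bind organelle RNA, 3 were described by chlorophyll and 1 by carotene. Of the 24, 7 were listed for a lower and 4 for a higher name, against 16.8% and 10.2% of all target genes, and 5 of the 7 rest on novel_164 alone (8 reads in yellow, 37 in green). Of the 3 described by chlorophyll, 1 was listed for a lower name. Of the 61 non-member target genes described as mitochondrial, 9 were listed for a lower name (14.8%) and 19 for a higher name (31.1%). 17 of these 19 were listed for novel_320, with 20 yellow and 0 green reads, and 2 had another higher name, so the contrast with the 4.67% of chloroplast members rests on that name.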

How the data were processed

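Read counts per miRNA name were deposited by the authors as raw counts, per the file headers, with 1 column for each library. The submitters' processing notes name Bowtie. For the genome build, miRBase release, counting rule and target prediction tool, nothing is stated in the labels or headers. The deposited target table lists each gene with its miRNA names and best protein match.

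Counts were scaled to the column total as CPM. Ratios carry 95% Clopper-Pearson intervals of the yellow share of a name's reads, which cover counting error only, since PCR copies were not marked and reads are not separate molecules. A count of 0 was set to a floor of 3 reads (1.07 CPM in yellow, 1.44 CPM in green). A member counts under a direction if any name listing it was called. Functions were given by hand from the descriptions, with terpenoid enzymes under hormones and cofactors, and assimilation enzymes under amino acids. Membership is decided by description text alone, but the keyword rule, lists and other rules were set with earlier results of these data known. Every member was named, with ratios for called and most-read names and for some others chosen after their values were seen. Alternatives used edgeR 4.0.16 TMM factors, DESeq2 1.42.0 size factors, totals without the most-read name, other read minima and fold limits. The size rule was tested on simulated counts with counting error only, which does not cover differences between libraries of the same leaf type. Calculations used SciPy 1.17.1.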

Additional observations from a re-analysis of the deposited data

How the results depend on the processing

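With 1 library per leaf type, counting error is the only error known, and 47 of the 107 members had no name with 20 reads. The scaling mattered most. Members listed for higher names numbered 5 under the main scaling, but 14 under TMM, 13 under median of ratios and 13 once novel_1 was left out of the totals. Their pairs numbered 6, 18, 16 and 14, and their names 5, 12, 10 and 8. Over all names with at least 20 reads, higher calls rose too, from 12.1% under the main scaling to 20.9% under TMM. The median log2 ratio of the 63 names was -0.42 under the main scaling, 0.045 under TMM and 0 under median of ratios. A minimum of 50 reads left 3 members, 3 pairs and 2 names that were higher, and a 1.5-fold limit gave 8 higher names. Members listed for lower names numbered 14 to 29 over the settings tried, within 1.5 times the 21 of the column total. Calling the summed reads of each member's names, a setting added after seeing the data, gave 18 members with lower and 5 with higher sums. Other scalings move every ratio by a common factor, and no called ratio crossed 1. No paired analysis was possible because each leaf type has 1 library.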
